A study of Mus musculus with 49 samples.

Results

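The genes described here encode the mouse receptors for immunoglobulin G (IgG) and the molecules that carry their signal. They were chosen by symbol as Fcgr1, Fcgr2b, Fcgr3, Fcgr4, Fcer1g, Fcgrt and Syk, and all 7 were among the 45252 genes of the count table. Of the 7 genes, 6 passed the filter on low counts that left 18220 genes for testing, and Fcgr4 did not. Their expression was measured in the neocortex of 49 mice, of which 32 were bigenic mice with an induced TDP-43 transgene, and 22 of these 32 had been immunized with TDP-43 peptides. Since IgG binds these receptors, the main question put to the data was whether their RNA differed between immunized and PBS-treated bigenic mice.

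RNA from bulk neocortex was sequenced with 1 library per mouse. The bigenic mice, called rNLS8, carry 2 transgenes (NEFH-tTA and tetO-hTDP-43ΔNLS), and after doxycycline withdrawal they produce a human TDP-43 that lacks the nuclear localization signal. The NEFH promoter drives the transactivator in neurons, so that microglia, the main Fc receptor-bearing cells of brain tissue, are not the cells meant to express the transgene. The monogenic littermates do not express it. Mice of all groups were of the mixed strain C57BL/6J x C3H/HeJ, were kept on doxycycline until 25.5 weeks of age and were killed at 28.5 weeks. The group ctrl-PBS held 17 monogenic mice given PBS, and TDP-PBS held 10 bigenic mice given PBS. TDP-10+12 held 10 bigenic mice immunized with peptides 10 and 12, and TDP-15 held 12 bigenic mice immunized with peptide 15. Injections were given 5 times before and 1 time after induction, and the first was given at 8 weeks of age. Each dose was 40 µg of ovalbumin-conjugated peptide with a CpG oligonucleotide, and the methods name Alhydrogel as the adjuvant of the rNLS8 regimen without saying whether boosters held it, while both PBS groups received PBS in place of the conjugates. No monogenic immunized mice were analysed here, so that an effect of immunization without the transgene cannot be told from these data.

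Fc gamma receptors are cell surface proteins through which myeloid cells bind IgG and immune complexes. Activating receptors pair with the common gamma chain encoded by Fcer1g, whose ITAM motif (a short tyrosine signalling motif) is phosphorylated by Src family kinases and then recruits the kinase Syk, whereas the inhibitory receptor encoded by Fcgr2b carries an ITIM that recruits phosphatases. The neonatal Fc receptor encoded by Fcgrt acts differently, since it protects IgG from degradation and moves it across cell barriers such as endothelium. In the brain, microglia and border macrophages are the cells best known for Fc gamma receptors, while Fcgrt is also expressed by endothelial cells.

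In the RefSeq annotation of GRCm38.p6, Fcgr1 lies at chr3:96282909-96293969 on the minus strand. Fcgr2b (chr1:170960558-170976071, minus strand), Fcgr4 (chr1:171018926-171029761, plus strand), Fcgr3 (chr1:171051169-171065915, minus strand) and Fcer1g (chr1:171229572-171234349, minus strand) are neighbours on distal chromosome 1. Fcgrt lies at chr7:45092993-45103822 on the minus strand and Syk at chr13:52582610-52648792 on the plus strand. Predicted or small RNA genes overlap the spans of Fcgr2b (Gm38204), Fcgr3 (Mir6546), Fcgr4 (Gm26110) and Fcgrt (Gm45669), and because the strand setting of the counting is not given in the sources used here, reads of such pairs cannot be told apart. Exact 100-base words shared with other genes were few. Of all such words in their transcripts, 2.54% in Fcgr3 and 1.40% in Fcgr2b occurred in another gene, and 0.0% in the remaining 5 genes. For Fcgr3 the other gene was Fcgr2b, while words of Fcgr2b were also found in genes outside the family. A single mismatch breaks a word, so stretches that are similar but not identical are not counted by this measure.

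The promoters of Fcgr1 and Fcgr4 are shown because these activating receptors had the largest fold differences between bigenic and monogenic mice. Each window runs from 250 bases before to 50 bases after the RefSeq start site (GRCm38.p6), written 5′ to 3′ in the direction of the gene, with 1 interferon-type motif in capitals.
Fcgr1, chr3:96293920-96294219, minus strand: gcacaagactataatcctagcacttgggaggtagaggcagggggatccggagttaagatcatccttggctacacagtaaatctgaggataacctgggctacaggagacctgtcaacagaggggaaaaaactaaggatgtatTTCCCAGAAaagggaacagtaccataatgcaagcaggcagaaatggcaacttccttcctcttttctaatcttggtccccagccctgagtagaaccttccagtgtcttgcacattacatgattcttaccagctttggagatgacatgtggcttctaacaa
Fcgr4, chr1:171018676-171018975, plus strand: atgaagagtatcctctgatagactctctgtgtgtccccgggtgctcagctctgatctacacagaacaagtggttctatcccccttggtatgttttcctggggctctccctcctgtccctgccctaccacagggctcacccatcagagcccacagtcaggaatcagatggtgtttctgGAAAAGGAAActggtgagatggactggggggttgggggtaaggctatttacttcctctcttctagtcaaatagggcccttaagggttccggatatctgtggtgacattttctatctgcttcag
The capitals in Fcgr1 mark a match to the gamma-activated site (TTCNNNGAA, its own reverse complement) that starts at -109 relative to the start site. Those in Fcgr4 mark a match to the core of the interferon-stimulated response element (GAAA repeats 2 bases apart, read on either strand) that starts at -73. Among 32851 RefSeq promoters of the same length, 8.30% held the first motif and 3.44% the second. Neither motif was found in the windows of Fcgr2b, Fcgr3, Fcer1g, Fcgrt or Syk. A PU box (GAGGAA, or TTCCTC on the other strand), the core of sites bound by the myeloid factor PU.1, occurred in the windows of Fcgr1, Fcgr3, Fcgr4 and 1 of 2 Syk start sites, against 28.3% of all promoters. These matches describe the letters of the windows and are not evidence of binding. The 2 promoters printed were picked by fold difference, which for Fcgr4 rests on few reads. A link between the motifs and the differences was not tested.

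Total counts lay between 17775738 and 21033608 per mouse (median 19955601), and the group means did not differ beyond the spread between mice (two-sided permutation test, p = 0.493). Levels are given in CPM, counts relative to the library total, after TMM scaling. The floor of 3 counts corresponds to 0.143 to 0.169 CPM depending on the mouse, taken from the library totals before TMM scaling. A single edgeR quasi-likelihood fit covered all 49 mice, its tests were two-sided, and a gene is called changed at a Benjamini-Hochberg adjusted p-value under 0.05 over all 18220 genes. Levels of Xist and Ddx3y matched the labelled sex of every mouse.

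In TDP-PBS, 4 of 6 receptor genes were called higher than in ctrl-PBS, and they were Fcgr1, Fcgr3, Fcgr2b and Fcer1g. The same genes were called higher in TDP-10+12 and in TDP-15, and none of the 6 was called lower. Among all genes tested, 43.5% were called in TDP-PBS (21.9% higher, 21.6% lower), 40.8% in TDP-10+12 (20.8% higher, 20.0% lower) and 46.9% in TDP-15 (23.6% higher, 23.2% lower). The 3 comparisons share the ctrl-PBS mice. Syk and Fcgrt did not pass the test in any of them. In bulk tissue, more cells of a type and more RNA per cell cannot be told apart.

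**Figure D1:**
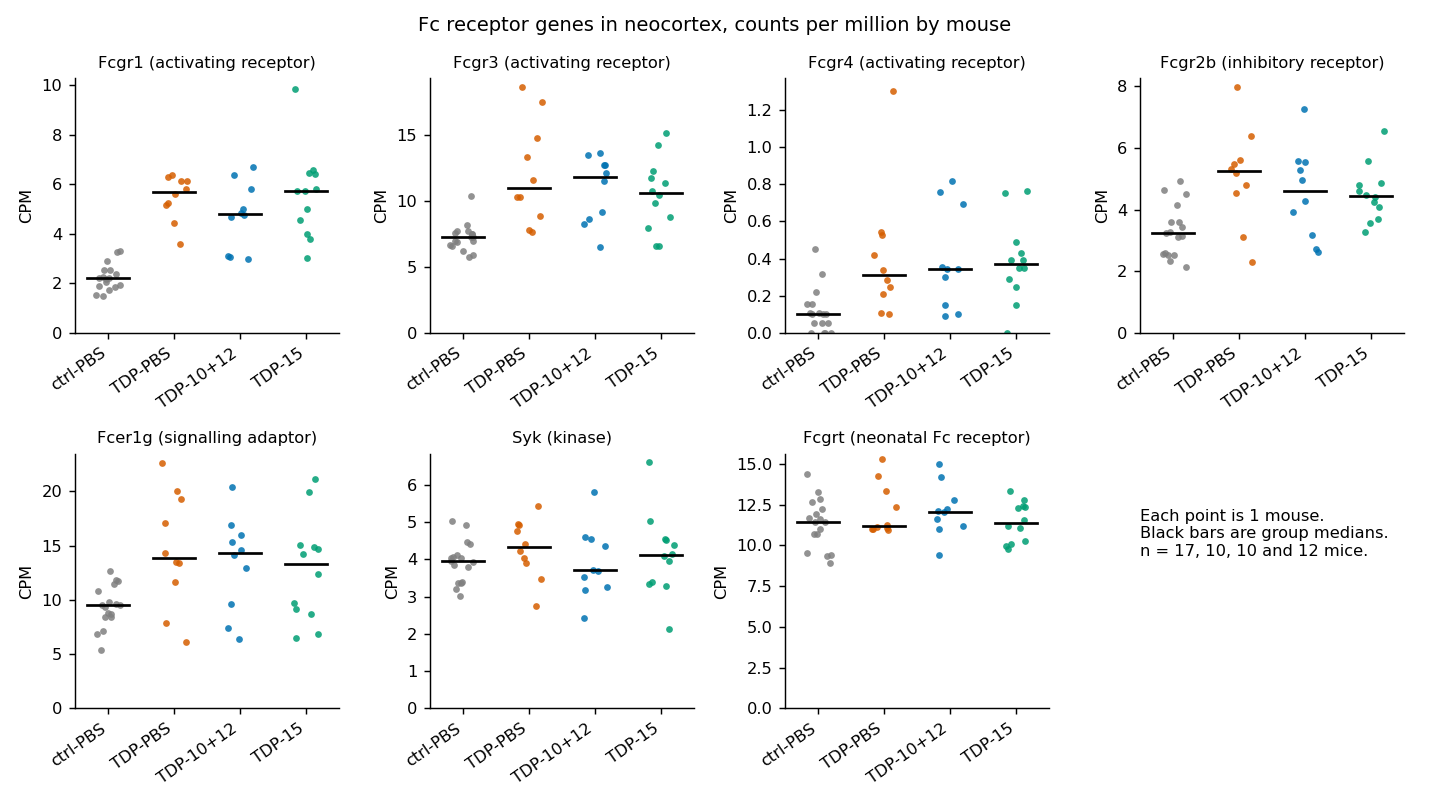
Expression of the 7 Fc receptor genes in CPM (linear axis from 0) in each of 49 mice, by group, with the group median as a black bar. Fcgr1 shows the clearest separation of ctrl-PBS from the 3 rNLS8 groups, while Syk and Fcgrt overlap throughout.

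Fcgr1, the high-affinity IgG receptor, had the largest difference from ctrl-PBS among the 6 receptor genes tested. It ranged from 1.48 to 3.30 CPM in ctrl-PBS with a median of 2.20 CPM. In TDP-PBS it ranged from 3.59 to 6.38 CPM (median 5.69 CPM), and all 10 values exceeded those of ctrl-PBS. Such a complete separation upwards was seen for 2.31% of all genes tested in this comparison, for 2.23% in TDP-10+12, for 2.45% in TDP-15 and for 1.16% over all rNLS8 mice. In TDP-10+12 the range was 2.98 to 6.71 CPM (median 4.78 CPM), and in TDP-15 it was 3.03 to 9.85 CPM (median 5.72 CPM). Of these mice, 7 of 10 and 11 of 12 exceeded the whole ctrl-PBS range, and the remaining ones overlapped with the upper end of ctrl-PBS. The log2 fold change against ctrl-PBS was 1.29 (SE 0.14, edgeR adjusted p = 1.43e-10) in TDP-PBS, a 2.44-fold difference with a 95% interval of 1.997 to 2.98. It was 1.08 (SE 0.14, edgeR adjusted p = 2.07e-08) in TDP-10+12 and 1.31 (SE 0.14, edgeR adjusted p = 1.67e-11) in TDP-15. The highest value of TDP-15 came from mouse 126, and without this mouse the log2 fold change was 1.21.

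Fcgr3, a low-affinity activating receptor, contributed most of the reads of the IgG receptors. It ranged from 5.73 to 10.3 CPM in ctrl-PBS (median 7.26 CPM) and from 7.60 to 18.6 CPM in TDP-PBS (median 10.9 CPM). In TDP-10+12 it ranged from 6.48 to 13.6 CPM (median 11.8 CPM), and in TDP-15 from 6.56 to 15.1 CPM (median 10.6 CPM). The medians of all rNLS8 groups lay above the highest ctrl-PBS mouse, yet the lower mice of each group overlapped with ctrl-PBS, and 18 of 32 rNLS8 values exceeded all of them. The log2 fold change was 0.74 (SE 0.13, edgeR adjusted p = 5.79e-06) in TDP-PBS, 0.59 (SE 0.13, edgeR adjusted p = 0.000241) in TDP-10+12 and 0.53 (SE 0.13, edgeR adjusted p = 0.000361) in TDP-15.

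Fcgr4, an activating receptor for IgG2 subclasses known from myeloid cells, was close to the floor of the assay. It had 0 to 9 counts per mouse in ctrl-PBS (median 2 counts), 2 to 27 in TDP-PBS (median 6.5), 2 to 17 in TDP-10+12 (median 7) and 0 to 16 in TDP-15 (median 7.5). The rNLS8 medians of 0.312, 0.344 and 0.370 CPM were above the floor and the ctrl-PBS median of 0.101 CPM was below it, but only 9 of 32 rNLS8 mice exceeded the highest ctrl-PBS mouse (0.452 CPM). In a permutation test of log2 CPM for this gene alone, the mean was higher than in ctrl-PBS by 1.17 in TDP-PBS (two-sided p = 0.00062), by 1.17 in TDP-10+12 (p = 0.00082) and by 1.16 in TDP-15 (p = 0.00055). Fitted by edgeR with no filter on low counts, its log2 fold changes were 1.77 (adjusted p = 0.0021), 1.73 (adjusted p = 0.00306) and 1.68 (adjusted p = 0.00227). Precise fold changes cannot be taken from so few reads.

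Fcgr2b, the inhibitory receptor, ranged from 2.12 to 4.93 CPM in ctrl-PBS (median 3.25 CPM). It ranged from 2.29 to 7.96 CPM in TDP-PBS (median 5.27 CPM), from 2.61 to 7.27 CPM in TDP-10+12 (median 4.60 CPM) and from 3.26 to 6.55 CPM in TDP-15 (median 4.44 CPM). Every rNLS8 group overlapped with ctrl-PBS, and 13 of 32 rNLS8 values exceeded its highest one. The log2 fold change was 0.61 (SE 0.15, edgeR adjusted p = 0.000839) in TDP-PBS, 0.45 (SE 0.15, edgeR adjusted p = 0.0149) in TDP-10+12 and 0.45 (SE 0.15, edgeR adjusted p = 0.00993) in TDP-15. The call in TDP-10+12 rested on mouse 301, without which the log2 fold change was 0.36 (edgeR adjusted p = 0.0543). It was also lost with limma-voom (0.31, adjusted p = 0.106).

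The balance of receptors can be read from their reads within a mouse. Fcgr2b gave a median of 25.8% of the reads of Fcgr1, Fcgr2b, Fcgr3 and Fcgr4 together in ctrl-PBS, 21.7% in TDP-PBS, 20.5% in TDP-10+12 and 21.2% in TDP-15. Fcgr1 gave 17.8% in ctrl-PBS and 24.2%, 23.0% and 27.1% in the same order of rNLS8 groups, while Fcgr3 gave 55.9%, 52.2%, 52.6% and 50.3%. The share of the inhibitory receptor ranged from 17.9% to 33.8% in ctrl-PBS and from 15.5% to 28.2% in all rNLS8 mice, so the groups overlapped. Measured against Fcgr3 alone, the median share of Fcgr2b was 31.9% in ctrl-PBS, 29.8% in TDP-PBS, 27.7% in TDP-10+12 and 30.5% in TDP-15. These shares were not tested, and they are shares of reads from transcripts of different length.

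Fcer1g, the common gamma chain, ranged from 5.39 to 12.7 CPM in ctrl-PBS (median 9.54 CPM). It ranged from 6.16 to 22.6 CPM in TDP-PBS (median 13.9 CPM), from 6.37 to 20.4 CPM in TDP-10+12 (median 14.4 CPM) and from 6.47 to 21.1 CPM in TDP-15 (median 13.3 CPM). The rNLS8 groups reached from the lower part of ctrl-PBS to well above it, and 20 of 32 mice exceeded its highest mouse. The log2 fold change was 0.63 (SE 0.18, edgeR adjusted p = 0.00294) in TDP-PBS, 0.50 (SE 0.18, edgeR adjusted p = 0.0194) in TDP-10+12 and 0.44 (SE 0.17, edgeR adjusted p = 0.0293) in TDP-15. These calls were the least firm of the 4 genes. With limma-voom the log2 fold changes were 0.46 (adjusted p = 0.0530), 0.37 (adjusted p = 0.126) and 0.37 (adjusted p = 0.0918), so that all 3 calls were lost. With edgeR, the call in TDP-10+12 was lost without mouse 301 (0.43, adjusted p = 0.0546), and that in TDP-15 without mouse 214 (0.35, adjusted p = 0.0877) or mouse 328 (0.36, adjusted p = 0.0782).

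Syk, the kinase that binds the phosphorylated gamma chain, ranged from 3.01 to 5.03 CPM in ctrl-PBS (median 3.95 CPM) and from 2.14 to 6.60 CPM in all rNLS8 mice (median 4.12 CPM). The log2 fold change was 0.12 in TDP-PBS (SE 0.12, edgeR adjusted p = 0.437), with a 95% interval of -0.12 to 0.36. Fcgrt, the neonatal Fc receptor, ranged from 8.91 to 14.4 CPM in ctrl-PBS (median 11.4 CPM) and from 9.40 to 15.3 CPM in all rNLS8 mice (median 11.6 CPM). Its log2 fold change was 0.10 in TDP-PBS (SE 0.07, edgeR adjusted p = 0.278), with a 95% interval of -0.05 to 0.24. In TDP-10+12 and TDP-15 the log2 fold changes against ctrl-PBS were -0.01 (-0.25 to 0.23) and 0.06 (-0.16 to 0.29) for Syk, and 0.10 (-0.05 to 0.24) and 0.01 (-0.13 to 0.15) for Fcgrt. Levels of both genes overlapped across all 4 groups, and the upper bounds of both intervals in TDP-PBS were below the lower bounds for Fcgr1 (0.998) and Fcgr3 (0.48). The lower bounds for Fcgr2b (0.31) and Fcer1g (0.28) were above the upper bound of Fcgrt (0.24) but below that of Syk (0.36).

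Levels of different genes can be compared only per length. Per kilobase of exonic sequence (GENCODE M21 basic transcripts combined), the median in ctrl-PBS was 12.8 CPM for Fcer1g, 6.42 CPM for Fcgrt, 5.39 CPM for Fcgr3, 0.853 CPM for Fcgr2b, 0.849 CPM for Fcgr1, 0.655 CPM for Syk and 0.0806 CPM for Fcgr4. In TDP-PBS the order was Fcer1g (18.6 CPM per kilobase), Fcgr3 (8.12), Fcgrt (6.27), Fcgr1 (2.20), Fcgr2b (1.38), Syk (0.717) and Fcgr4 (0.248). Fcgr1 and Fcgr2b, which had nearly equal medians per kilobase in ctrl-PBS, were therefore apart in TDP-PBS. The lengths assume that all annotated exons are used, which was not measured here.

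Among the rNLS8 groups, immunization with either antigen was not accompanied by a detectable difference in any Fc receptor gene. None of the 6 genes tested was called changed between TDP-10+12 and TDP-PBS, between TDP-15 and TDP-PBS, between TDP-10+12 and TDP-15, or between both immunized groups together and TDP-PBS. The background was the same, with 0.0% of all genes called by edgeR in each of these comparisons. Unadjusted p-values were under 0.05 for 5.23%, 3.03%, 6.83% and 3.2% of all genes in the same order, and for none of the 6.

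**Figure D2:**
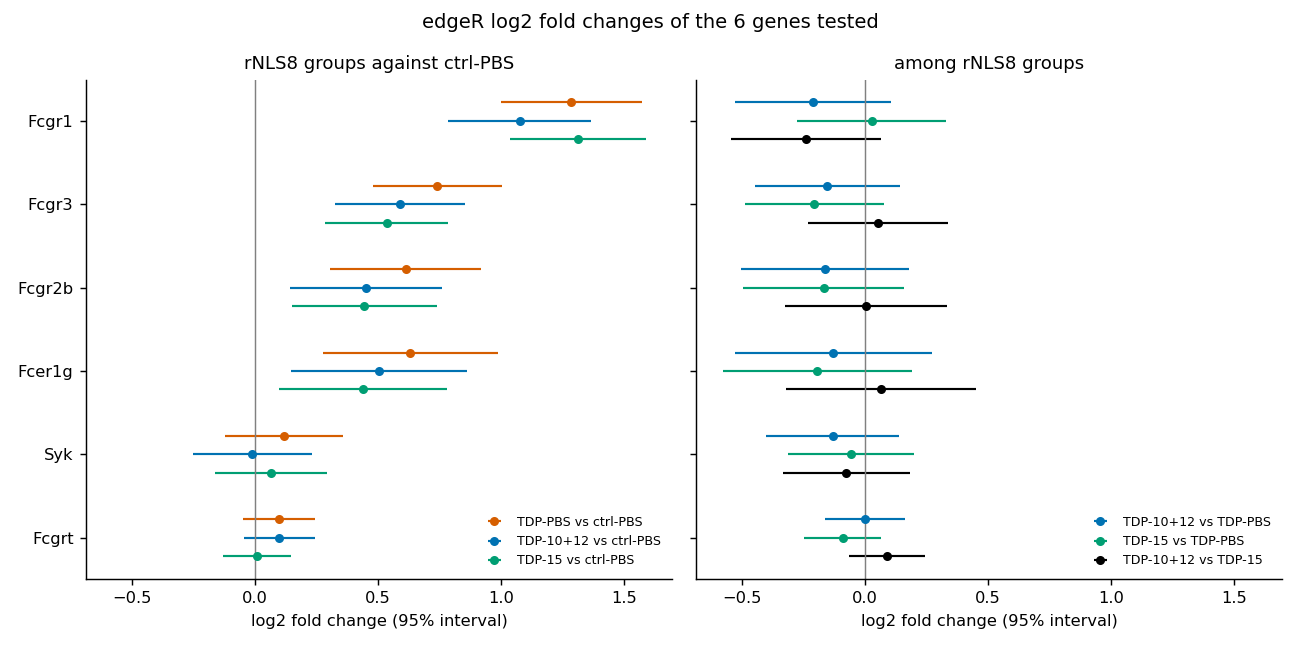
Log2 fold changes (points) with 95% intervals (bars) from edgeR for the 6 genes tested, against ctrl-PBS on the left and among rNLS8 groups on the right. Intervals of Fcgr1, Fcgr3, Fcgr2b and Fcer1g lie above 0 on the left, and every interval on the right includes 0.

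The sizes of difference that remain possible are given by the intervals. For Fcgr1, the log2 fold change against TDP-PBS was -0.21 in TDP-10+12 (95% interval -0.53 to 0.11, edgeR adjusted p = 0.964) and 0.03 in TDP-15 (-0.27 to 0.33, not called). Between both antigens it was -0.24 (TDP-10+12 against TDP-15, 95% interval -0.54 to 0.07, edgeR adjusted p = 0.828). For the immunized groups together the difference from TDP-PBS was -0.09 (95% interval -0.36 to 0.18), so that the fold was between 0.779 and 1.13. The Fcgr1 values of the immunized mice spread around those of TDP-PBS on both sides.

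The remaining genes gave intervals of like width. For the immunized groups together against TDP-PBS, the log2 fold change was -0.18 for Fcgr3 (95% interval -0.43 to 0.07) and -0.16 for Fcgr2b (-0.45 to 0.13). It was -0.16 for Fcer1g (-0.50 to 0.18), -0.09 for Syk (-0.32 to 0.14) and -0.04 for Fcgrt (-0.18 to 0.09), with an edgeR adjusted p of 0.998 for each of the 6 genes. All 6 values were below 0, but none was larger than its error allows, and the genes are measured in the same mice. In the separate comparisons with TDP-PBS, these 5 genes had log2 fold changes from -0.16 (Fcgr2b) to 0.00 (Fcgrt) in TDP-10+12 and from -0.21 (Fcgr3) to -0.06 (Syk) in TDP-15. Between TDP-10+12 and TDP-15 they ran from -0.07 (Syk) to 0.09 (Fcgrt). For Fcgr4 the difference in mean log2 CPM from TDP-PBS was -0.0011 in TDP-10+12 (permutation test, two-sided p = 0.998), -0.0098 in TDP-15 (p = 0.979) and -0.0058 in both together (p = 0.985), and between TDP-10+12 and TDP-15 it was 0.0087 (p = 0.981).

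No interaction with sex was detected. None of the 6 genes was called for the interaction of genotype and sex in PBS-treated mice or of immunization and sex in rNLS8 mice, where 0.0% of all genes were called in either case. For Fcgr1 the interactions were -0.20 (95% interval -0.69 to 0.30) and 0.20 (-0.39 to 0.79) on the log2 scale, and for Syk -0.30 (-0.70 to 0.10) and 0.25 (-0.28 to 0.77). With 4 to 10 mice per sex and group, only large interactions could have been seen.

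Markers of the cells that bear these receptors rose in the same mice. Of 12 microglia and macrophage markers, 11 were called higher in each rNLS8 group against ctrl-PBS, beside 20.8% to 23.6% of all genes tested. The median log2 fold changes of these markers were 0.96 in TDP-PBS, 0.85 in TDP-10+12 and 1.04 in TDP-15 (medians over all genes tested were near 0). Their log2 fold change in TDP-PBS ran from 0.29 for Aif1 (edgeR adjusted p = 0.0514) and 0.43 for Csf1r to 1.11 for C1qc and 1.14 for Ctss. Their summed level ranged from 298 to 396 CPM in ctrl-PBS, 459 to 726 in TDP-PBS, 325 to 661 in TDP-10+12 and 357 to 1001 in TDP-15, where the highest value again came from mouse 126. Of 10 homeostatic microglia markers, 5 were called higher in TDP-PBS and none lower, with Tmem119 (0.46) towards the upper end and P2ry12 (-0.09) and Sall1 (-0.00) at the lower end. In TDP-10+12, 4 of these 10 were called higher and 1 lower, and in TDP-15 6 were called higher and 1 lower. The part of these changes in the receptor values was not tested.

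Relative to the summed CPM of the 12 markers, the receptors fell into groups by description. Fcgr1 made up 0.435% to 0.896% of it in ctrl-PBS (median 0.615%) and 0.747% to 1.14% in TDP-PBS (median 0.936%). The median was 0.885% in TDP-10+12 and 0.958% in TDP-15, and 18 of 32 rNLS8 values exceeded the ctrl-PBS range. The ratio of the TDP-PBS to the ctrl-PBS median was 1.52 for Fcgr1, but 0.93 for Fcgr3, 0.89 for Fcgr2b and 0.93 for Fcer1g, whose groups overlapped. Syk and Fcgrt had ratios of 0.65 and 0.63, and 29 and 28 of 32 rNLS8 values fell short of the ctrl-PBS range. The marker sum itself rose from a median of 347 CPM in ctrl-PBS to 589 CPM in TDP-PBS. Any gene whose own level is unchanged, as Syk and Fcgrt nearly were, therefore has a ratio under 1. How many of all genes tested fall short in this way was not counted. With homeostatic markers as the denominator the ratios were 2.01 for Fcgr1, 1.24 for Fcgr3, 1.26 for Fcgr2b, 1.26 for Fcer1g, 0.90 for Syk and 0.86 for Fcgrt. Fcgr3, Fcgr2b and Fcer1g thus had ratios under 1 against one marker list and over 1 against the other, whereas Fcgr1 was above 1 against both. For Fcgr4 the ratios were 2.13 and 2.52, but they are ratios of medians of few counts, and 3 of 32 rNLS8 values relative to the 12 markers exceeded the ctrl-PBS range.

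**Figure D3:**
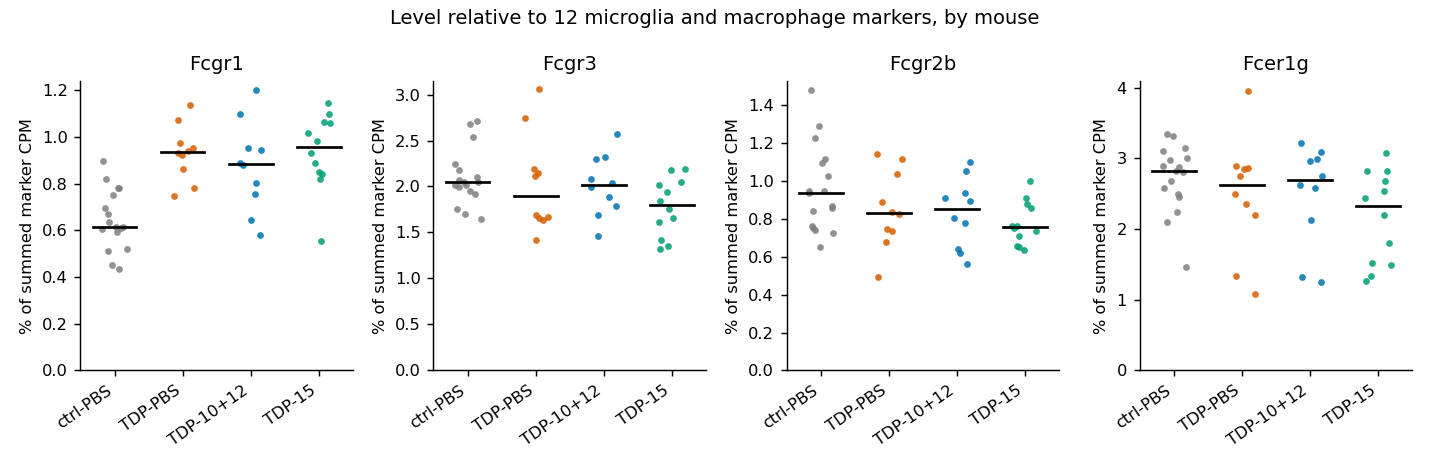
Level of 4 receptor genes as a percent of the summed CPM of 12 microglia and macrophage markers in each mouse, with the group median as a black bar and axes from 0. The Fcgr1 median is 0.615% in ctrl-PBS and 0.936% in TDP-PBS, while the other 3 genes have slightly lower medians in rNLS8 mice.

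Markers of other cell types that can carry Fc receptors differed in level and direction. Calls among all genes tested were 21.9% higher and 21.6% lower in TDP-PBS. They were 20.8% higher and 20.0% lower in TDP-10+12, and 23.6% higher and 23.2% lower in TDP-15. Of 7 border macrophage markers tested, 4 were called higher in TDP-PBS, from 0.02 for Clec10a and 0.33 for Mrc1 (neither called) to 0.80 for Cbr2 and 1.28 for Lyve1, with summed levels of 4.20 to 9.83 CPM in ctrl-PBS and 6.42 to 16.4 CPM in TDP-PBS. Of 3 monocyte markers tested, Plac8 (2.15) and Ms4a6c (1.52) were called higher and Ly6c2 (0.59) was not, and their summed level with the untested ones was 1.10 to 9.66 CPM in ctrl-PBS and 2.09 to 10.3 CPM in TDP-PBS. Of 8 neutrophil markers only Ngp and S100a9 were tested, and neither was called in TDP-PBS, while 1 of them was called lower in TDP-10+12 and both in TDP-15. The summed neutrophil level had a median of 0.936 CPM in ctrl-PBS and 1.79 CPM in TDP-PBS, with 50.4 CPM in the highest ctrl-PBS mouse. Of 7 mast cell and basophil markers only Hdc was tested, and it was not called. Of 16 B cell and plasma cell markers, a list that includes immunoglobulin constant genes, 8 were in the count table. Cd79a, Jchain and Pax5 were tested and not called in TDP-PBS, and in TDP-15 2 of the 3 were called higher. No immunoglobulin constant gene was among those tested. Of the T and NK cell markers only Cd4 was tested, and it fell by 1.19 on the log2 scale in TDP-PBS (edgeR adjusted p = 0.000257), from a median of 20.0 CPM to 8.37 CPM, with CD3 genes at 8 counts or fewer in every mouse. Of 7 endothelial markers, Ly6c1 (0.38) and Abcb1a (0.14) were called higher in TDP-PBS, and Flt1 (-0.12) and Cldn5 (-0.05) were not called.

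For the bulk of the tissue, 3 of 7 neuron markers were called lower in TDP-PBS and 1 higher, among the former Snap25 (-0.68) and Camk2a (-0.52). The shares over all genes tested were 21.6% lower and 21.9% higher. Of 6 astrocyte markers 1 was called higher (Gfap, 1.64) and 2 lower (Slc1a2, -0.35, and Gja1, -0.29). None of 6 oligodendrocyte markers was called, and the highest value was 0.09 for Mobp. Of 7 olfactory bulb markers, 3 were called lower in TDP-PBS, among them Eomes (-3.23) and Omp (-2.68), with a summed level of up to 234 CPM in 1 ctrl-PBS mouse against 45.1 CPM at most in TDP-PBS. The part of these marker differences in the receptor values was not tested.

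The signalling partners of the receptors were described from lists of pathway genes. Counts of called genes stand beside 21.9% called higher and 21.6% called lower among all genes tested in TDP-PBS. The list of other Fc and immunoglobulin receptors also holds B2m, which is not itself a receptor but the light chain partner of Fcgrt. Of its 14 genes, 4 were tested. B2m (1.47, edgeR adjusted p = 1.51e-09) and Trim21, the cytosolic IgG receptor (1.38, edgeR adjusted p = 8.49e-09), were called higher in TDP-PBS. Fcrls (0.29) and Fcrlb (-0.49) were not called, and Fcer1a, the alpha chain of the IgE receptor, had 0 counts in all mice. B2m had a median of 81.6 CPM in ctrl-PBS and 238 CPM in TDP-PBS. The medians of Fcgrt, which did not pass the test, were far lower, at 11.4 and 11.2 CPM. Whether the rise of B2m concerns the complex with Fcgrt was not tested.

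Of 7 Src family kinases tested, which phosphorylate ITAMs and ITIMs, 6 were called higher in TDP-PBS. Of all genes tested, 21.9% were called higher and 21.6% lower there. The myeloid kinase Fgr had the largest log2 fold change (1.33), Fyn had a small one (0.14, edgeR adjusted p = 0.00254) and Src was not called (0.05). Among 22 genes acting downstream of Syk, 12 were called higher and 2 lower. Pik3ap1, an adaptor for PI3 kinase (1.02), and Rac2, a haematopoietic GTPase (0.88), were at the upper end, and the adaptor Blnk (-0.40) and the phospholipase Plcg1 (-0.22) were called lower. Syk itself did not pass the test while many of its partners did, but whether it differed from them was not tested.

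Of 10 phosphatases and other inhibitors of this signalling, 4 were called higher in TDP-PBS and 1 lower. Beside these and the next counts stand 21.9% higher and 21.6% lower among all genes tested. Ptpn6, the phosphatase SHP-1 of haematopoietic cells, rose (0.98, edgeR adjusted p = 1.40e-06) as did the adaptor Dok1 (0.63), Ptpn11 was not called (-0.01), and Dok3 fell by 0.94 on the log2 scale (edgeR adjusted p = 1.64e-05). Of 15 other ITIM receptors of myeloid cells, 8 were called higher and 1 lower, from Cd22 (2.35) and Lilrb4a (1.43) to Pecam1 (0.10, not called) and Sirpa (-0.11, called lower). Of 5 tested ITAM adaptors and partners other than Fcer1g, 3 were called higher, among them Clec7a, the beta-glucan receptor dectin-1 (3.88), and Tyrobp, the adaptor DAP12 (1.01), while Oscar (-0.50) and Cd79a (-0.10) were not. Tyrobp rose from a median of 6.95 CPM in ctrl-PBS to 14.5 CPM in TDP-PBS, with a narrower error (SE 0.11) than Fcer1g. Median log2 fold changes in TDP-PBS were 0.84 for the other Fc and immunoglobulin receptors with B2m. They were 0.50 for the Src family kinases and 0.34 for signalling downstream of Syk. They were 0.15 for the inhibitors, 0.63 for the ITIM receptors and 0.88 for the ITAM adaptors, beside 0.62 for the 6 Fc receptor genes and -0.00039 for all genes tested. No gene of any list was called between either immunized group and TDP-PBS.

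**Figure D4:**
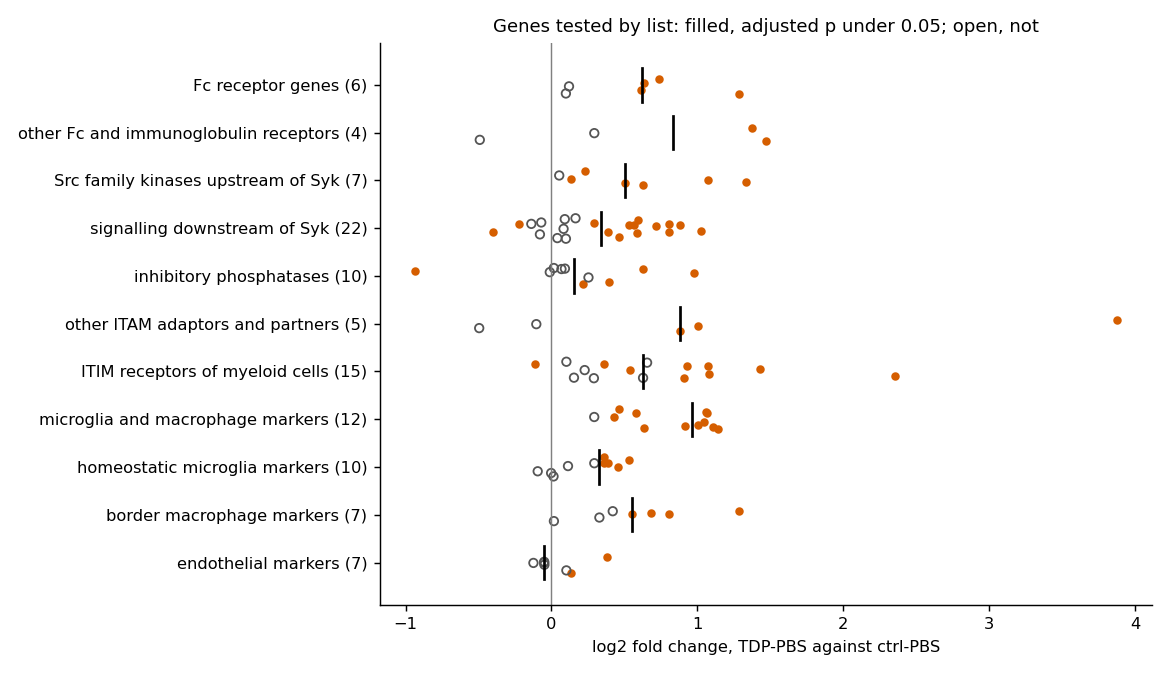
Log2 fold changes of TDP-PBS relative to ctrl-PBS for the genes tested in 11 lists, with the number tested in parentheses, filled points for an edgeR adjusted p under 0.05, open points for all others and a black bar at each list's median. Members of all lists but the endothelial one have a median above 0, and Fcer1g, Fcgr2b and Fcgr3 lie below the median of the microglia and macrophage markers (0.96).

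The spread between mice of one group differed among the receptors. On the log2 CPM scale the SD of Fcgrt was 0.15 to 0.19 in the 4 groups, close to the median of all genes tested (0.20 to 0.21). The SD of Fcer1g was 0.31 in ctrl-PBS and 0.54 to 0.59 in the rNLS8 groups. For Fcgr3 it was 0.19 in ctrl-PBS and 0.36 to 0.46 in the rNLS8 groups, and for Syk 0.20 and 0.28 to 0.39. In ctrl-PBS, TDP-PBS, TDP-10+12 and TDP-15 it was 0.35, 0.50, 0.48 and 0.27 for Fcgr2b. In the same order it was 0.32, 0.26, 0.42 and 0.44 for Fcgr1. To describe what moved together within groups, each gene's group means were removed and Pearson's r was taken over 49 mice, which share tissue pieces, depth and cell content. Fcgr3 and Fcer1g were alike (r = 0.71, Spearman's rho = 0.74), followed by Fcgr2b and Fcgr3 (r = 0.63, rho = 0.57), while Fcgrt was least like Fcer1g (r = 0.15, rho = 0.18). Without the 2 mice farthest from the median, these r were 0.71, 0.58 and 0.13.

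Over all genes tested, the genes most like Fcgr3 in this sense were Ctss (r = 0.73) and C1qa (r = 0.72), both microglia and macrophage markers, and then Fcer1g. For Fcgr1 they were the interferon-induced GTPase gene Gbp2 (r = 0.70), the homeostatic marker Tmem119 (r = 0.68) and Xaf1 (r = 0.68). For Fcgr2b they were Vim (r = 0.74), Ehd2 and Slc11a1 (both r = 0.72), for Syk Irf5 (r = 0.71), Csf3r (r = 0.70) and Zfpm1 (r = 0.68), and for Fcgrt Ptgds (r = 0.72), Apoe and Atoh8 (both r = 0.67). For Fcer1g they were Ifi213 (r = 0.75) and Ifi206 (r = 0.74), and then Fcgr3. The r are descriptions without a test, and those of Syk fell to between 0.54 and 0.57 without the 2 farthest mice.

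For Fcer1g, many of the most similar genes lay near it on the chromosome. Ifi213 and Ifi206, of the interferon-inducible Ifi200 family, lie 2.35 and 2.25 Mb from Fcer1g on chromosome 1. Of the 20 genes most like Fcer1g, 9 (45.0%) lay within 5 Mb of it, where 102 of the genes tested (0.560%) are located. Among them were Ifi213, Ifi206, Fcgr3, Copa, Ifi211, Pfdn2, Ifi209 and Ifi204. For Fcgr3 and Fcgr2b, which lie in the same region, 2 of 20 and 0 of 20 were within 5 Mb, and for Fcgr1, Fcgrt and Syk 1, 1 and 0 of 20. None of the 20 genes most like Fcer1g was on the microglia marker lists, which was also the case for Fcgrt, against 5 of 20 for Fcgr3, 3 of 20 for Fcgr1, 3 of 20 for Fcgr2b and 2 of 20 for Syk. This description was chosen after the values had been seen and was not tested.

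**Figure D5:**
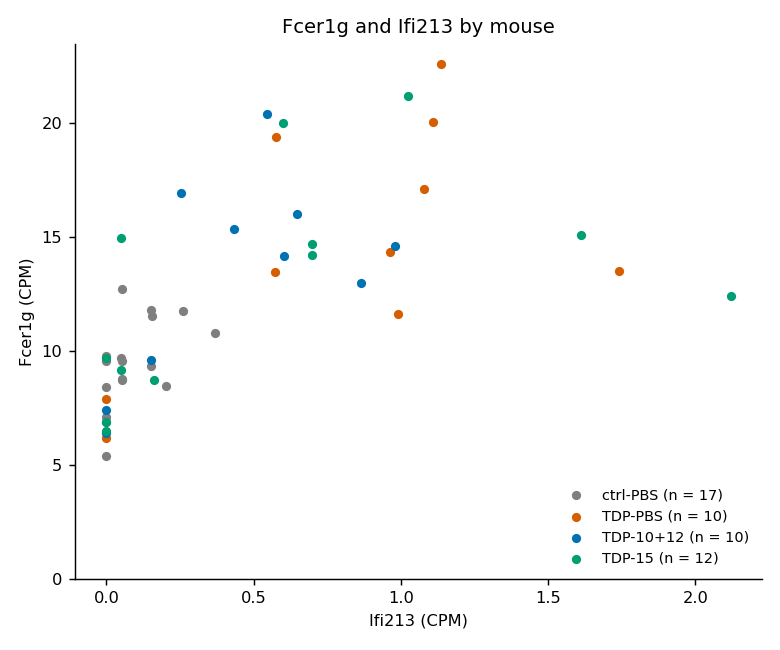
Fcer1g against Ifi213 in CPM (linear axes), 1 point per mouse, coloured by group. The 2 rNLS8 mice with the lowest Fcer1g in each group have 0 counts of Ifi213, at the left edge. Mouse 254 of TDP-15, at 9.68 CPM of Fcer1g, and several ctrl-PBS mice also lie at this edge.

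Within each group the similarity of Fcer1g and Ifi213 was r = 0.58 over 17 ctrl-PBS mice, 0.81 over 10 TDP-PBS mice, 0.83 over 10 TDP-10+12 mice and 0.72 over 12 TDP-15 mice, with rho of 0.62, 0.67, 0.45 and 0.66. For Fcer1g and Ifi206 the r were 0.17, 0.89, 0.73 and 0.86 in the same order of groups, with rho of 0.16, 0.72, 0.33 and 0.77, so that the similarity was weak in ctrl-PBS. Without the 2 mice farthest from the median of each gene, the r over all groups were 0.69 for Ifi213 (rho 0.62) and 0.68 for Ifi206 (rho 0.59). Mice 251 and 124 of TDP-PBS, 337 and 266 of TDP-10+12 and 284 and 54 of TDP-15 had the lowest Fcer1g levels of their groups, at 6.16, 7.89, 6.37, 7.38, 6.47 and 6.88 CPM, and all 6 had 0 counts of Ifi213. Other mice did not follow this pattern. Mouse 254 of TDP-15 had 0 counts of Ifi213 at 9.68 CPM of Fcer1g, and mouse 126 had 0.0508 CPM at 14.9 CPM. Several ctrl-PBS mice also had 0 counts, among them 280 and 343 at 9.54 and 9.77 CPM of Fcer1g. These mice were picked out after the values had been seen. Ifi213 was low, with medians of 0.0525 CPM in ctrl-PBS and 0.976, 0.489 and 0.380 CPM in TDP-PBS, TDP-10+12 and TDP-15, and counts of the near-identical Ifi200 genes are uncertain where reads could be split between copies. The mice came from a mixed strain background, and the genotypes of single mice in this region were not analysed here.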

How the data were processed

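RNA of about 30 mg of neocortex per mouse was sequenced as paired-end reads of 100 bp. The authors deposited raw counts per gene symbol and mouse, without normalization, aligned to GRCm38.p6 according to the methods. The submitters' processing notes name mm10, HISAT, HISAT2, Bowtie, Bowtie2 and RSEM with no role, and the annotation and strand setting are not given in the sources used here. Groups and sexes were taken from the labels. No 2 libraries of a group were copies of each other (smallest chi-squared per degree of freedom 7.24). The floor of 3 counts accounts for counting error alone.

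Low counts were removed with filterByExpr by group (minimum 10 per library, minimum 15 summed), TMM factors (0.929 to 1.06) were applied, and all 49 mice were fitted with edgeR 4.0.16 (R 4.3.3), glmQLFit and glmQLFTest, without covariates. Standard errors were derived from the F statistic, and the common dispersion was 0.0263. The study used DESeq2 on the same groups, which was an alternative here (DESeq2 1.42.0), as were limma-voom with quality weights (limma 3.58.1), other size factors, other filters, sex as a covariate, a fit of only the groups compared and leaving out each mouse. Permutation tests used 100000 resamples of log2 CPM (prior count 2). The statistical steps were tested on simulated data.

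The genes and the pathway and marker lists were chosen with earlier results of these data known. All 7 genes are reported, Fcgr4 outside the fit across genes. From each list, the 2 largest and 2 smallest log2 fold changes of TDP-PBS relative to ctrl-PBS are named, and for each gene the 3 genes most like it, and some genes that this rule names are not reported here. The positions of the genes most like each receptor were examined after the data had been seen. Gene positions and promoters are from RefSeq (GRCm38.p6), in which all 7 symbols matched. Figures were drawn with matplotlib 3.10.9.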

Additional observations from a re-analysis of the deposited data

Results flagged for a closer look

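In TDP-PBS, the Fcgr4 level of mouse 217, 1.31 CPM, stood apart from the other 9 mice of the group by more than Dixon's criterion for 10 samples (0.466) allows. The criterion was applied to 16 sets of values, the level of each of the 7 genes and the Fcgr2b share of reads in TDP-PBS and in TDP-10+12 (10 mice each), and no other set met it. Chance flags about 1 in 20 such sets. The value rests on 27 counts.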

How the results depend on the processing

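Between rNLS8 groups, the number of Fc receptor genes called was 0 under each alternative tool, scaling, filter and covariate tried and with each mouse left out. For both interactions with sex, only limma-voom and the minimum of 10 counts per mouse were tried, and it was 0 with both. Against ctrl-PBS it was 4 of 6 in each group, and it was unchanged with DESeq2, DESeq2's size factors, upper-quartile factors, a minimum of 10 counts per mouse, a sex covariate and a fit of only the groups compared. With no filter on low counts it was 5 of 7 in each group, the added gene being Fcgr4. With limma-voom it was 3 in TDP-PBS, 2 in TDP-10+12 and 3 in TDP-15. With single mice left out it ranged from 4 to 5 in TDP-PBS, from 2 to 5 in TDP-10+12 (2 without mouse 301) and from 3 to 5 in TDP-15, and Fcgr4 passed the filter in 14 of the 49 fits. The median share of Fcgr2b moved to 31.9% in ctrl-PBS, 29.8% in TDP-PBS, 27.7% in TDP-10+12 and 30.5% in TDP-15 when only Fcgr2b and Fcgr3 were counted. Values near 0 turned their sign in 18 cases, none of them called. With limma-voom these were Fcgrt in TDP-15 against ctrl-PBS (-0.019) and, in TDP-10+12 against TDP-15, Fcgr2b (-0.11) and Fcer1g (-0.0054). Fcgrt in TDP-10+12 against TDP-PBS was -0.0075 with the sex covariate, -0.0014 with only the groups compared and -0.00059 by permutation, and ranged from -0.036 to 0.041 with single mice left out. Fcgr2b in TDP-10+12 against TDP-15 was -0.0054 with the sex covariate and -0.038 by permutation, and ranged from -0.094 to 0.073. Fcgr1 in TDP-15 against TDP-PBS was -0.015 by permutation and ranged from -0.076 (without mouse 126) to 0.086. Other ranges with single mice left out that included 0 were those of Syk in TDP-10+12 (-0.078 to 0.061) and TDP-15 (-0.016 to 0.13) against ctrl-PBS, Fcgrt in TDP-15 against ctrl-PBS (-0.012 to 0.034), Syk in TDP-15 against TDP-PBS (-0.14 to 0.0048), and Fcer1g (-0.021 to 0.15) and Syk (-0.15 to 0.0060) in TDP-10+12 against TDP-15. The cause of these changes was not tested. Depth limits Fcgr4, with medians of 2 to 7.5 counts, more than the other genes. No paired analysis was possible because every mouse is a separate animal and the replicate numbers are animal numbers.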
